A study of Mus musculus with 32 samples.

Results

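The peroxisome proliferator-activated receptors Ppara, Ppard and Pparg, the retinoid X receptors Rxra, Rxrb and Rxrg, and the coactivators Ppargc1a and Ppargc1b were examined. The tissue was epidermis of wild-type and Ppard-/- mice, with and without ultraviolet (UV) exposure. These 8 genes were matched by symbol among the 55401 genes of the count files, and all 8 passed the filter on low counts, which left 15546 genes to be tested. RNA was sequenced from the epidermis of 32 hairless mice of SKH-1/SV129/BL6/J background, aged 10 to 14 weeks, 1 mouse per library. Wild-type (WT) and Ppard-/- (KO) littermates of both sexes were either sham handled or exposed once to 120 mJ/cm2 of mostly UVB light and sampled 24 h later, giving 8 groups of 4 mice by sex, genotype and treatment. Comparisons of genotype and UV averaged the sexes, so that each of the 4 genotype-by-treatment groups held 8 mice. How the Ppard allele was made, which exons it lacks and which mice share a litter is not given in the sources used here.

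PPARs are nuclear receptors that bind fatty acids and their derivatives. Each pairs with an RXR on DNA, where the pair recruits corepressors in the absence of a ligand and coactivators, such as those of the PGC-1 family encoded by Ppargc1a and Ppargc1b, once a ligand is bound. PPARα is known for fatty acid oxidation in liver and muscle, PPARγ for fat cells and sebocytes, and PPARβ/δ, the product of Ppard, is the most abundant PPAR of keratinocytes, where it has been tied to differentiation, survival and wound repair.

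The libraries held 22919428 to 40653581 reads on genes. The summed level of 7 p53 target genes, a sign of UV exposure, was 608 to 716 counts per 1000000 reads (cpm) over all control mice and 2160 to 4050 cpm over all UV-exposed mice. Basal and suprabasal keratinocyte markers were high in every group, and their sums differed by treatment. The median sum of 6 suprabasal markers was 68150 cpm in WT Control and 19140 cpm in WT UV mice, while that of 6 basal markers was 11700 and 21980 cpm. The basal markers did not move as a set, since 2 rose and 2 fell after UV in WT mice. Among them Krt14 went from a mean of 5356 cpm in WT Control to 17500 cpm in WT UV mice, while Krt15 was at -6.08 on the log2 scale. A female KO UV mouse, 54F, stood apart, with 2187 cpm of dermal fibroblast markers against 1.76 to 106 cpm in the other mice. Results that rest on this mouse are given with and without it.

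Ppard lies on the plus strand of chromosome 17 (GRCm38, chr17:28232700-28301474). Its annotated transcripts number 9, of which 4 are protein coding, and together they cover 7514 exonic bases. Only 1320 of these bases, or 17.6%, are coding, the smallest coding share of the 8 genes, whose other shares ran from 25.6% for Rxra to 78.2% for Ppargc1b. A count that sums reads over all exons of Ppard cannot tell which exons, coding or not, a read came from.

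The RefSeq promoter windows of Ppard and Ppara, which moved in opposite directions after UV in both genotypes, are shown as the 250 bases before the RefSeq start (GRCm38.p6, both on the plus strand, at chr17:28232504-28232753 and chr15:85735526-85735775). The GENCODE genes start earlier, at chr17:28232700 and chr15:85734983. The Ppard window thus lies partly, and the Ppara window wholly, within the GENCODE gene. Capitals mark the GC box, GGGCGG, and the CCAAT box, each searched on both strands.
Ppard: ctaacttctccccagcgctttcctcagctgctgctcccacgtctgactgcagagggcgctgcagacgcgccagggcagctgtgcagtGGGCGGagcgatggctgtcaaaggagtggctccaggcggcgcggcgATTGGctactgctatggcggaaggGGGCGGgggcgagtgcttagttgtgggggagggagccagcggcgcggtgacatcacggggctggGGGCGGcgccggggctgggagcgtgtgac
Ppara: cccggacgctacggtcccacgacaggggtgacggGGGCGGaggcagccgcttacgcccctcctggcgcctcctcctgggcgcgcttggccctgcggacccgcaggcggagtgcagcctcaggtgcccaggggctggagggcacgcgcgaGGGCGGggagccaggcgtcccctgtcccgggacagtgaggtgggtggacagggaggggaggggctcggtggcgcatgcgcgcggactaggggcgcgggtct
The Ppard window held 3 GC boxes and 1 CCAAT box on the minus strand, and the Ppara window held 2 GC boxes. A GC box was present in 32.7% and a CCAAT box in 33.8% of 32851 promoter windows of this length. The windows held no match to AGGTCA, the half-site that nuclear receptors bind, present in 14% of windows, or to its direct repeat with 1 base between, AGGTCANAGGTCA, present in 0.0335%. A match is a description of letters and not a bound site. Of the 8 genes, 7 had a window in the table used.

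Ppard reads were retained in KO epidermis, at a lower level than in WT mice. Without UV, Ppard was measured at 87.3, 94.0 and 105 cpm (lowest, median and highest of 8) in WT mice and at 70.3, 77.5 and 88.9 cpm in KO mice. In 6 of 8 KO mice the level lay below the lowest WT mouse, and the other 2 overlapped the WT range. After UV the corresponding levels were 252, 279 and 326 cpm in WT mice and 175, 219 and 239 cpm in KO mice, and these groups did not overlap. In whole reads, Ppard drew 1722 to 3308 reads per KO Control library and 4606 to 7281 per KO UV library.

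The fitted Ppard level in KO mice was 83.6% of that in WT mice without UV (95% interval 75.9 to 92.0%) and 74.5% after UV. With edgeR's quasi-likelihood test and Benjamini-Hochberg adjustment over 15546 genes, the difference passed the 0.05 threshold after UV (log2 fold change -0.42, SE 0.07, adjusted P = 0.00114) and not without UV (log2 fold change -0.26, SE 0.07, adjusted P = 0.156, unadjusted P = 0.000704). The 2 genotype differences did not differ from each other beyond their error (interaction -0.17 on the log2 scale, SE 0.10, adjusted P = 0.344). Mouse 54F had the lowest Ppard level of the KO UV mice, and without it the difference after UV was -0.39 (adjusted P = 0.00121). Markers of dermal fibroblasts moved with this comparison: all 7 were higher in KO than in WT mice after UV, with a median of 4.38 on the log2 scale, and their sum was 1.76 to 9.05 cpm in WT UV and 6.13 to 2187 cpm in KO UV mice. Without 54F none of the 7 passed (lowest adjusted P = 0.139), though their median was still 1.42. The part of dermal RNA in the Ppard difference was not tested. Fitted in 1 sex at a time, the difference after UV was -0.49 in males, where it did not pass the test (adjusted P = 0.107), and -0.43 in females (adjusted P = 0.0271).

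None of the other 7 genes differed between genotypes by this test, either without UV, where 0 of all 8 passed against 0.206% of all genes, or after UV, where Ppard alone passed against 3.31% of all genes. At an unadjusted P under 0.05, 1 of the 8 differed without UV (Ppard) and 2 after UV (Ppard and Pparg). DESeq2 and limma-trend, run on the same mice, each called 0 of the 8 without UV and 1 of the 8 after UV. The intervals show how large a difference could have been missed. For Rxra, KO mice were at 103% of WT without UV, with a 95% interval of -0.10 to 0.17 on the log2 scale, and for Rxrb at 95.2%, with an interval of -0.22 to 0.08. For Ppara and Pparg the intervals without UV were wide, from -1.33 to 0.07 and from -2.01 to 0.40. They leave room for a loss of either paralog, or a gain of Pparg, that these data would not detect. After UV the intervals were -0.635 to 0.923 for Ppara and 0.38 to 2.73 for Pparg. The latter lies above 0 before adjustment over all genes.

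**Figure D1:**
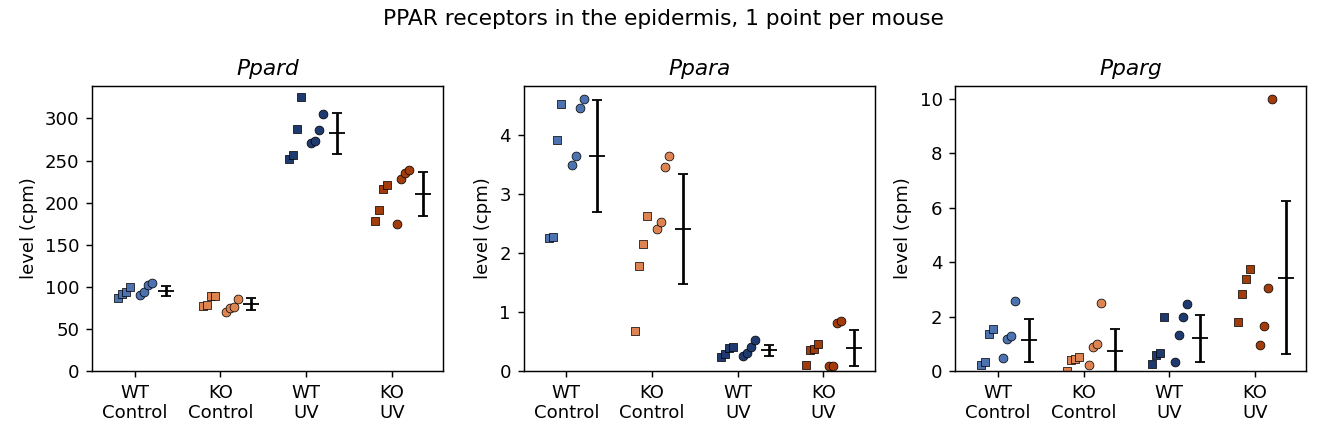
Level in cpm (y axis) of Ppard, Ppara and Pparg in the 4 genotype-by-treatment groups (x axis), with squares for male and circles for female mice and bars for the mean ± SD of 8 mice. Ppard rose after UV in both genotypes and stayed below WT in all 8 KO UV mice, Ppara fell to under 1 cpm, and Pparg was highest in KO UV mice.

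Genotype calls were also counted along the chromosome of Ppard. Of 35 tested genes that start within 1 Mb of Ppard, 4 were called without UV, 1 higher and 3 lower in KO mice. On the whole of chromosome 17, 13 of 758 tested genes were called (1.72%), against 19 of 14775 on other chromosomes (0.129%). After UV the shares were 8.05% and 3.07%. Rxrb lies 5.8 Mb from Ppard on the same chromosome, and its own level did not pass the test in either state. The part of the flanking chromosome in the Ppard difference was not tested.

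UV exposure moved Ppard and Ppara in opposite directions. Ppard rose by 1.56 on the log2 scale in WT mice (SE 0.07, 2.96-fold, adjusted P = 6.22e-17) and by 1.40 in KO mice (SE 0.07, 2.64-fold, adjusted P = 6.77e-16). All 8 UV-exposed mice of each genotype lay above all 8 control mice of that genotype. Of the 8 genes, 4 passed the test for UV in WT mice, 1 higher and 3 lower, against 71% of all genes (34.5% higher and 36.5% lower), and 4 passed in KO mice, 2 higher and 2 lower, against 70.8% (37.3% and 33.5%). In bulk epidermis fewer cells of a type and less RNA per cell cannot be told apart. The part of a change in keratinocyte composition in these UV responses was not tested.

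Ppara, the receptor best known from fasting liver, was measured at 2.25, 3.78 and 4.60 cpm in WT Control mice and at 0.239, 0.351 and 0.518 cpm in WT UV mice. In KO mice it was at 0.680, 2.46 and 3.65 cpm without UV and at 0.0777, 0.367 and 0.840 cpm after UV. The WT groups did not overlap, while in KO mice 2 of 8 UV-exposed mice, 54F and 66F, lay just above the lowest control mouse, 34M. The fall was -3.34 on the log2 scale in WT mice (SE 0.38, adjusted P = 1.08e-08), or a level 9.87% of that in controls, and -2.56 in KO mice (SE 0.37, adjusted P = 7.23e-07), or 16.9%. The 2 falls did not differ beyond their error (interaction 0.78, SE 0.51, adjusted P = 0.414). After UV these levels rest on 2 to 29 reads per library, which limits their precision.

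Pparg, the receptor of fat cells and sebocytes, rose after UV in KO mice. Its level was 0, 0.476 and 2.49 cpm in KO Control mice and 0.956, 2.93 and 9.97 cpm in KO UV mice. In WT mice it was 0.225, 1.23 and 2.57 cpm without UV and 0.270, 0.979 and 2.45 cpm after UV. Thus 5 of 8 KO UV mice lay above all KO Control mice, 5 of 8 lay above all WT UV mice, and the WT groups fully overlapped.

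The Pparg response was 2.42 on the log2 scale in KO mice (SE 0.60, 5.37-fold, adjusted P = 0.000750) and 0.07 in WT mice (SE 0.57, adjusted P = 0.923). The difference between these responses, tested as an interaction, was 2.36 (SE 0.82) and did not pass (adjusted P = 0.126, unadjusted P = 0.00783), nor did the genotype difference after UV (1.55, SE 0.57, adjusted P = 0.122). Fitted in females alone, the KO response was 1.73 and did not pass the test (adjusted P = 0.0803). Without mouse 54F, the lowest KO UV mouse for Pparg, the response was 2.60 (adjusted P = 0.000298). With each mouse left out in turn, the KO response ranged from 1.89 to 2.79 (adjusted P at most 0.00452). The genotype difference after UV then ranged from 1.015 to 1.94 and passed in none of these fits (lowest adjusted P = 0.0766).

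Sebocyte markers moved beside Pparg only in part. Of 9 tested sebocyte markers, 5 rose and 1 fell after UV in KO mice, with a median log2 fold change of 1.72 against 0.09 over all genes, and in WT mice 2 rose and 3 fell, with a median of -0.26 against -0.01. Over all genes 37.3% rose and 33.5% fell in KO mice, and 34.5% rose and 36.5% fell in WT mice. Elovl3, which elongates fatty acids for sebum, rose by 2.98 in KO mice (adjusted P = 4.55e-06) and by 1.22 in WT mice (adjusted P = 0.0198). Far2, which makes fatty alcohols for wax esters, rose by 2.42 in KO mice (adjusted P = 0.00116) and stood at -0.13 in WT mice (adjusted P = 0.861). Dgat2 was at -0.70 in KO mice (adjusted P = 2.69e-07), and Scd1 (-0.07), Scd3 (-0.16) and Mc5r (0.79) did not pass there. Scd1 and Dgat2 had the highest means of the tested markers, 499 and 560 cpm over all mice. The summed level of all 10 sebocyte markers had a median of 1287 cpm in KO Control, 1246 cpm in KO UV, 1363 cpm in WT Control and 893 cpm in WT UV mice, and the mouse with the highest Pparg level, 66F, also had the highest sum, 3318 cpm.

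Fat cell markers were far lower. The sum of 8 was 0.659 to 68.0 cpm over all mice, again highest in 66F, and 5 of them, among them the defining genes Adipoq, Plin1 and Lep, did not pass the filter on low counts. Of the 3 tested, 2 rose in KO mice after UV, Cidec (3.51, adjusted P = 7.15e-05) and Plin4 (2.72, adjusted P = 0.000215), both lipid droplet proteins, and Cfd was at -1.37 (adjusted P = 0.285). In WT mice 1 of 3 rose, Cidec (1.92, adjusted P = 0.0121). The median sum was 1.95 cpm in KO Control, 14.7 cpm in KO UV, 5.50 cpm in WT Control and 9.44 cpm in WT UV mice. None of the fat cell or sebocyte markers passed the test for the interaction. The part of sebocyte or fat cell RNA in the Pparg response was not tested.

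**Figure D2:**
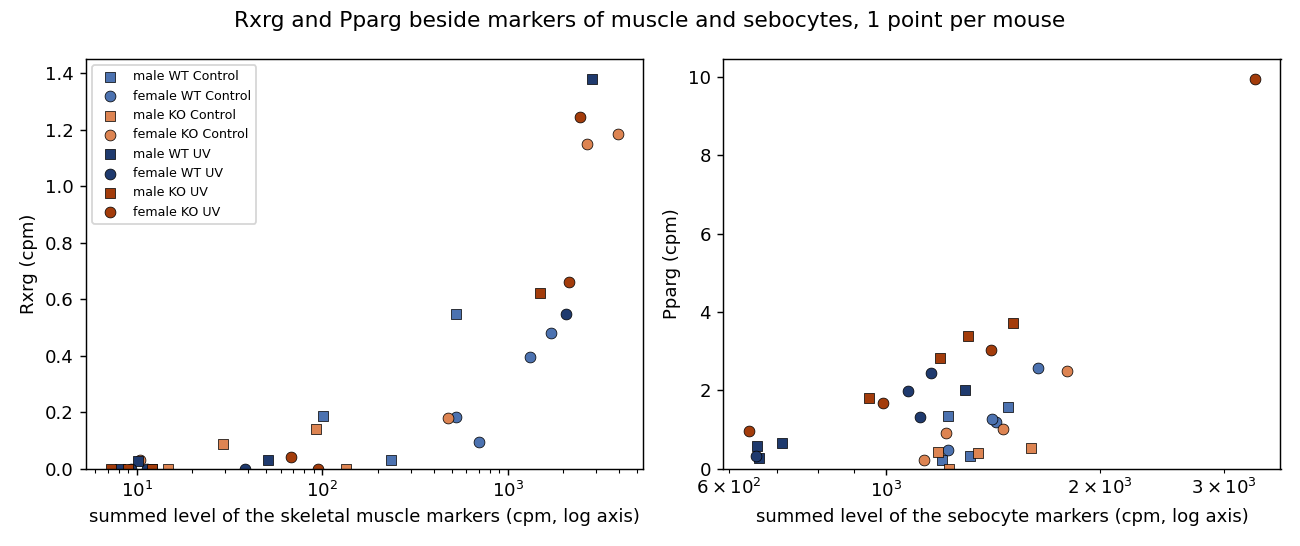
Level of Rxrg beside the summed level of 10 skeletal muscle markers (left) and of Pparg beside that of 10 sebocyte markers (right), in cpm with a log x axis and 1 point per mouse (squares male, circles female, colours for the 4 groups). Mice with at least 10 Rxrg reads are those with 529 cpm or more of muscle markers, apart from 1 mouse at 701 cpm with fewer reads, and the highest Pparg point, at 9.97 cpm, has the highest sebocyte sum.

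Rxra, the main RXR of skin and the partner of PPARs, retinoic acid receptors and the vitamin D receptor, fell after UV in both genotypes. It was measured at 402, 431 and 450.1 cpm in WT Control and 203, 222 and 252.5 cpm in WT UV mice. In KO mice the levels were 380.4, 439 and 476 cpm without UV and 189.9, 217 and 287 cpm after UV. Within each genotype the UV-exposed and control mice did not overlap, while WT and KO mice overlapped in both states. The fall was -0.93 in WT mice (SE 0.07, adjusted P = 1.38e-12), to 52.5% of control, and -0.97 in KO mice (SE 0.07, adjusted P = 7.11e-13), to 51.05% of control, and the interaction was -0.04 with a 95% interval of -0.23 to 0.15.

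Rxrb, an RXR expressed in most tissues, fell less. Its levels were 44.6, 46.6 and 58.1 cpm in WT Control, 32.3, 39.8 and 53.7 cpm in WT UV, 42.2, 46.0 and 51.8 cpm in KO Control and 38.4, 42.99 and 47.5 cpm in KO UV mice. In WT mice 7 of 8 UV-exposed mice lay below all controls (log2 fold change -0.27, SE 0.07, adjusted P = 0.00166), and in KO mice 4 of 8 did (-0.11, SE 0.07, adjusted P = 0.169). The responses did not differ beyond their error (interaction 0.16, SE 0.10, adjusted P = 0.407). The WT call did not hold in females alone (-0.08, adjusted P = 0.594), and the KO response passed the test without mouse 52M (-0.17, adjusted P = 0.0430) or without mouse 74F (-0.18, adjusted P = 0.0359).

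Rxrg, known from skeletal muscle and brain, was close to absent. No Rxrg read was counted in 11 of 32 mice, the median count per group was between 0.5 and 5 reads, and no fold change is given. The 10 mice with at least 10 Rxrg reads (10 to 43) had 529 to 3928 cpm of skeletal muscle markers, and the other 22 mice (0 to 5 reads) had 7.32 to 701 cpm. This limit of 10 reads was chosen after the values were seen. High and low mice were found in all 4 groups, and none of the 10 muscle markers passed the test for genotype or UV.

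**Figure D3:**
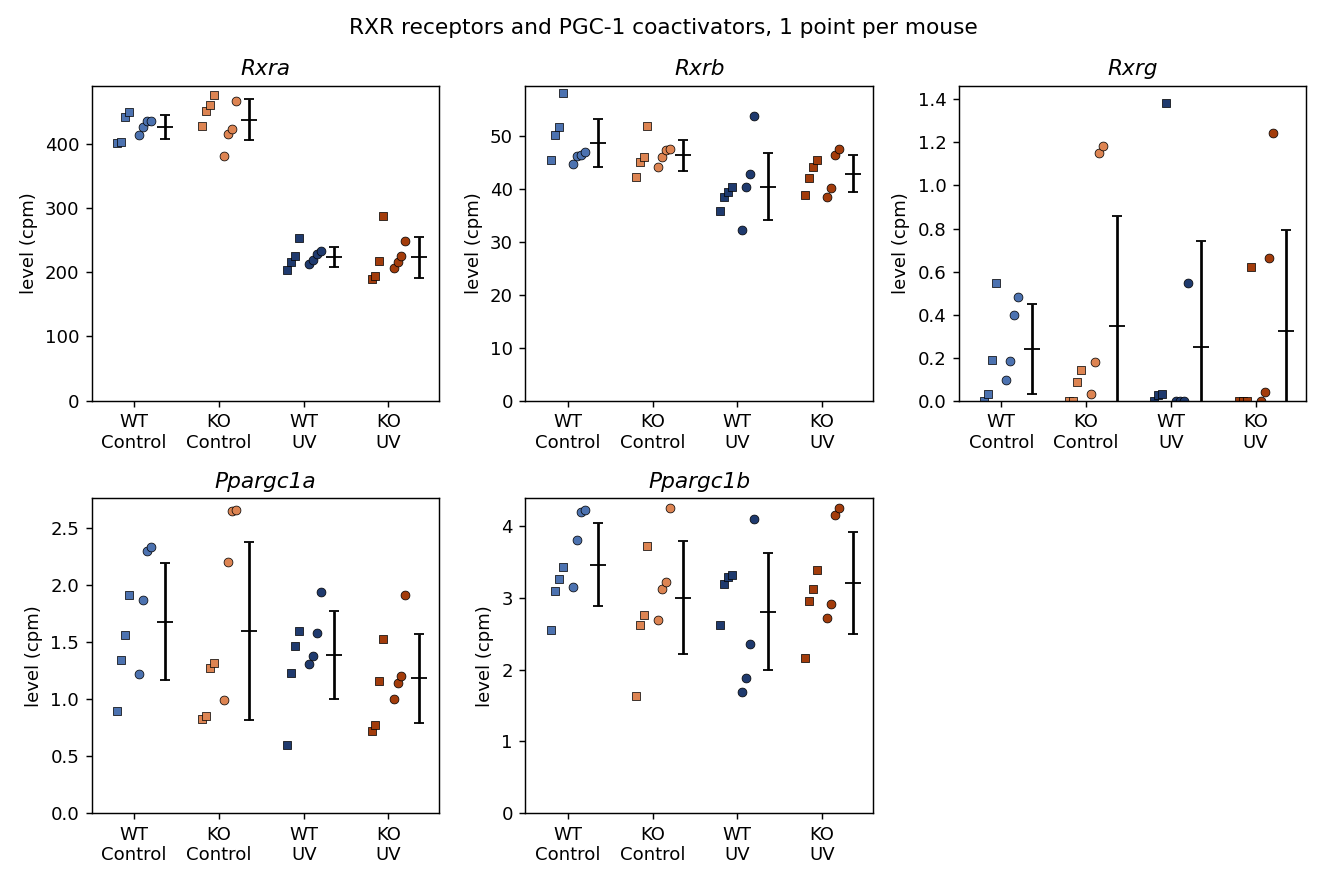
Level in cpm (y axis) of the RXR genes and the PGC-1 coactivators in the 4 genotype-by-treatment groups (x axis), with squares for male and circles for female mice and bars for the mean ± SD of 8 mice. Rxra separated completely by treatment. Rxrb fell slightly in WT mice, and its response in KO mice did not pass the test. Rxrg was above 1 cpm in only 4 mice spread over 3 groups.

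The PGC-1 coactivators, which drive mitochondrial gene expression, passed no test for genotype or UV. Ppargc1a was measured at 0.901, 1.72 and 2.34 cpm in WT Control, 0.602, 1.42 and 1.95 cpm in WT UV, 0.830, 1.30 and 2.66 cpm in KO Control and 0.721, 1.16 and 1.91 cpm in KO UV mice. Ppargc1b was at 2.55, 3.35 and 4.24 cpm, 1.69, 2.91 and 4.10 cpm, 1.63, 2.94 and 4.25 cpm, and 2.16, 3.04 and 4.26 cpm in the same groups. All groups overlapped for both genes. The UV response of Ppargc1a was -0.27 in WT mice (95% interval -0.76 to 0.22) and -0.36 in KO mice (-0.85 to 0.14), and that of Ppargc1b was -0.30 (-0.66 to 0.06) and 0.10 (-0.26 to 0.46). Without mouse 59F the WT response of Ppargc1b passed the test (-0.43, adjusted P = 0.0194).

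Genotype differences of the coactivators were likewise within their error. Ppargc1a was at 90.5% of the WT level in KO mice without UV (95% interval -0.63 to 0.34 on the log2 scale) and 85.3% after UV (-0.72 to 0.26). Ppargc1b was at 86.8% (-0.56 to 0.16) and 114% (-0.16 to 0.55).

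**Figure D4:**
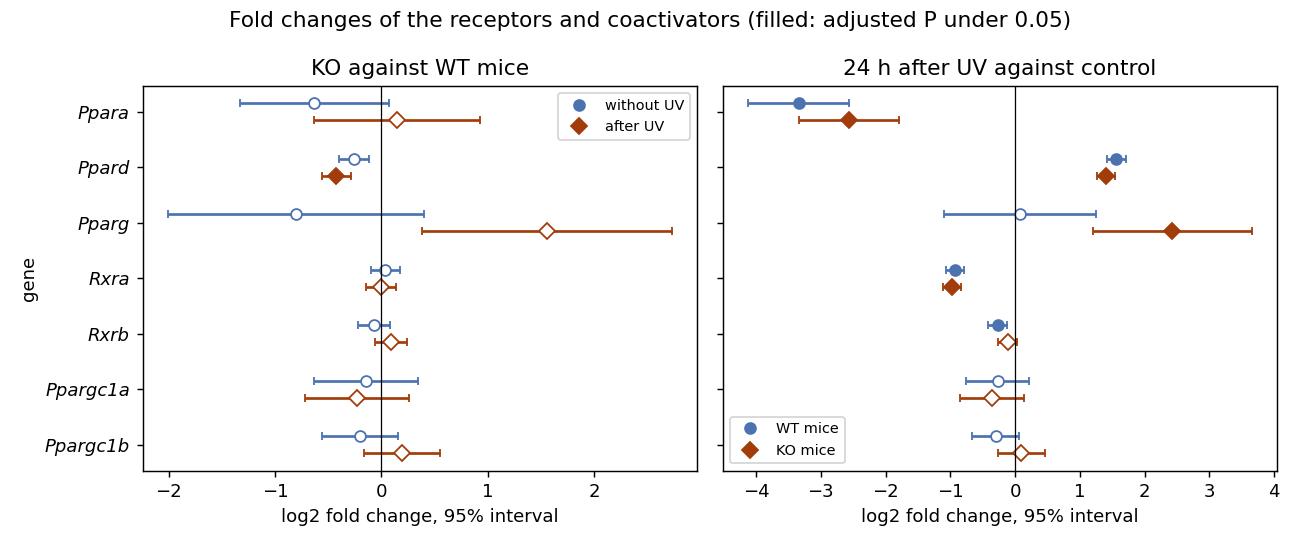
Log2 fold change (x axis) with 95% interval for 7 of the 8 genes (y axis), for KO against WT mice on the left and for UV against control on the right, with filled symbols for adjusted P under 0.05. Ppard after UV is the only filled symbol on the left, at -0.42, and Ppara, at -3.34 in WT mice, has the largest change on the right. Rxrg is left out because of its low counts.

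By sex, Ppargc1a was the only one of the 8 genes to pass the test, against 19.1% of all genes, and it was higher in females. It was measured at 0.993, 1.73 and 2.66 cpm (lowest, median and highest) in 16 females and at 0.602, 1.25 and 1.92 cpm in 16 males, so that the sexes overlapped. The difference was 0.53 on the log2 scale (SE 0.17, 1.44-fold, adjusted P = 0.0307). It missed the threshold without any 1 of 44F, 54F, 56M, 59F, 59M or 73F, with adjusted P from 0.05 to 0.0560, with no filter on low counts (0.53, adjusted P = 0.0638, over 30756 genes), and in WT mice alone (0.40, adjusted P = 0.659) or KO mice alone (0.66, adjusted P = 0.0816). Pparg was at 0.91 in the same direction and did not pass (SE 0.41, adjusted P = 0.113).

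None of the 8 genes passed the test for a sex-by-UV interaction, against 0% of all genes, or for a genotype-by-UV interaction, against 0.765%. At an unadjusted P under 0.05, 0 of the 8 differed by the first and 1, Pparg, by the second. DESeq2 and limma-trend each called 0 of the 8 for both.

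Levels were compared between genes per kilobase of exon. In WT Control mice the median order was Rxra (78.9 cpm per kb), Ppard (12.5), Rxrb (11.7), Ppara (0.985), Ppargc1b (0.839), Pparg (0.418), Ppargc1a (0.260) and Rxrg (0.0806 cpm per kb). The ranges of the 8 mice overlapped between Ppard and Rxrb, between Ppara and Ppargc1b, and for each following pair of neighbours. Ppard made up 85.8 to 95.2% of the PPAR sum per kilobase in WT Control and 84.8 to 98.3% in KO Control mice, where its reads do not show which exons they cover.

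After UV this order changed. In WT UV mice Ppard reached a median of 37.2 cpm per kb (33.5 to 43.4) and Rxra 40.6 cpm per kb (37.1 to 46.2), so that their ranges overlapped, where they had been far apart without UV. Ppara dropped to 0.0916 cpm per kb, below Pparg (0.331) and Ppargc1a (0.216). The share of Ppard in the PPAR sum was 97.4 to 99.6% in WT UV and 89.8 to 98.1% in KO UV mice, and that of Pparg in KO UV mice 1.36 to 9.55%. The sum of the RXR genes fell from a median of 90.5 to 50.2 cpm per kb in WT mice, with Rxra still at 75.9 to 83.1% of it.

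The genes most like each receptor were taken by Pearson's r of the deviations from the 8 group means in log2 cpm, among genes with a mean of at least 5 cpm, as a description of shared variation between mice. For Pparg they were Far2 (r = 0.87), Mgll (0.84) and Fa2h (0.84) over 32 mice, genes of fatty alcohol, monoglyceride and hydroxylated fatty acid metabolism. For Rxrg they were Myom1 (0.93), Mylpf (0.93) and Eno3 (0.92), all muscle genes. Genes close to Ppara included Cln6 (0.79) and Wdr7 (0.77), and Rxra varied most closely with Sipa1l2 (0.84), Pkp1 (0.83), a desmosome protein, and Plcg1 (0.82).

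For Ppard, taken over the 16 WT mice only, the closest genes were Tubb3 (0.88), Arhgef16 (0.88) and Myh9 (0.86). Genes close to Rxrb included Ddx54 (0.83) and Abcf2 (0.80). The coactivators had looser neighbours, which were Tfeb (0.74), a regulator of lysosomal genes, Ucp2 (0.71) and Eefsec (0.70) for Ppargc1b and Rab11fip5 (0.64), Fst (0.63) and Ifi203 (0.62) for Ppargc1a.

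Other genes of the PPAR and RXR machinery were taken in 5 lists and read for UV in WT mice, where 34.5% of all genes were higher and 36.5% lower. Among other partners of RXR, 9 of 13 listed were tested, and in WT mice 3 rose and 6 fell, led by the thyroid hormone receptor Thrb (-2.54) and the orphan receptors Nr4a2 (2.52) and Nr4a1 (1.95). Of 11 tested coactivators 1 rose and 4 fell, with Ncoa3 at -1.15, Ncoa2 at -1.03 and the PGC-1-related Pprc1 at 0.53. Of 9 corepressors 4 rose and 5 fell, with the deacetylase Sirt1 at 1.20 and Tbl1x at -1.15. All of these named genes passed the test (adjusted P from 3.25e-12 to 7.05e-05).

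Of 11 tested genes that carry or make lipid ligands, 4 rose, 1 fell and 6 did not pass, and the share that rose was close to that of all genes. Those that rose included Crabp2 (1.71), a retinoic acid carrier, Fabp5 (1.11), which delivers fatty acids to PPARβ/δ, and Alox12b (0.92), a lipoxygenase of the skin barrier. Of 10 tested partners and downstream factors of PGC-1, 4 rose and 3 fell, with Prkaa2, a subunit of AMP kinase, at 1.13, Gabpb1 at 0.61 and Tfb1m at -0.57. The adjusted P of these 6 genes was at most 0.00204. In these 5 lists 0 genes were called for genotype in either state or for the interaction, against 0.206%, 3.31% and 0.765% of all genes, shares so low that lists of this size would hold few calls.

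PPAR target genes were the list that differed by genotype. Cpt1a, Hadha and Hadhb were called in both states, higher in KO mice without UV and lower after UV. Without UV, 6 of 23 tested targets were higher in KO mice and 0 were lower, against 0.148% of all genes higher, with a median of 0.22 on the log2 scale against 0.00 over all genes. After UV, 6 of 23 were lower and 0 higher, against 0.618% of all genes lower, with a median of -0.07 against 0.02. The interaction passed for 7 of 23, all negative, against 0.251% of all genes. The remaining targets, 17, 17 and 16 genes, did not pass. The lists were chosen with earlier results of these data known, so these shares are a description. Without mouse 54F the counts were again 6 higher without UV, 6 lower after UV and 7 with a negative interaction. The dermal fibroblast markers still had a median of 1.42 in KO against WT mice after UV without 54F. Their part in these calls was not tested. Of the 6 basal and 6 suprabasal keratinocyte markers, 0 differed by genotype in either state, and of 7 T cell markers 1, Zap70, was higher in KO mice after UV (1.09, adjusted P = 0.00352).

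The list holds mainly genes of fatty acid oxidation, and not all of those were called. Acadm, an acyl-CoA dehydrogenase, was at 0.06 without UV and 0.10 after UV, Acadvl, another, at 0.08 and -0.13, and Ech1, an enoyl-CoA isomerase, at 0.22 and 0.11, and these did not pass. Cpt1a, the rate-limiting step of fatty acid entry into mitochondria, averaged 177.5 cpm in WT Control and 246 cpm in KO Control mice, and 70.4 cpm in WT UV and 38.2 cpm in KO UV mice. The genotype difference was thus 0.47 on the log2 scale without UV (SE 0.10, adjusted P = 0.0375) and -0.88 after UV (SE 0.10, adjusted P = 7.09e-06), with an interaction of -1.35 (SE 0.14). Cpt2, its partner on the inner membrane, averaged 24.9, 23.0, 30.6 and 13.8 cpm in the same order. It differed only after UV, at -1.16 (SE 0.09, adjusted P = 3.35e-09).

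The carrier Slc25a20, which brings acylcarnitines across the inner membrane, was 0.61 higher in KO mice without UV (adjusted P = 0.000105) and at -0.26 after UV (adjusted P = 0.0650). Hadha and Hadhb, the 2 chains of the trifunctional protein of β-oxidation, were higher without UV, at 0.38 and 0.31, and lower after UV, at -0.19 and -0.37. Acadl was higher without UV (0.48, adjusted P = 0.000659) and at -0.04 after UV (adjusted P = 0.839), and Acaa2 was lower after UV (-0.37, adjusted P = 0.00243). Angptl4, a secreted inhibitor of lipoprotein lipase, was 0.98 higher without UV (adjusted P = 0.0233) and at 0.47 after UV (adjusted P = 0.156). The kinase Pdpk1 was lower after UV (-0.32, adjusted P = 0.0131). The part of the chromosome flanking Ppard in these target gene calls was not tested.

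Some of these calls lay near the threshold. The call without UV was lost for Angptl4 without any 1 of 7 mice and for Cpt1a without any 1 of 9, and that of Hadha after UV without any 1 of 5. The differences themselves stayed within 0.88 to 1.125 for Angptl4, 0.41 to 0.51 for Cpt1a and -0.25 to -0.17 for Hadha when each mouse was left out. In females alone none of the 6 targets passed without UV, and in males alone only Slc25a20 did. Without mouse 54F, Cpt1a after UV was at -0.98 (adjusted P = 4.26e-07) and Cpt2 at -1.19 (adjusted P = 1.39e-08).

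**Figure D5:**
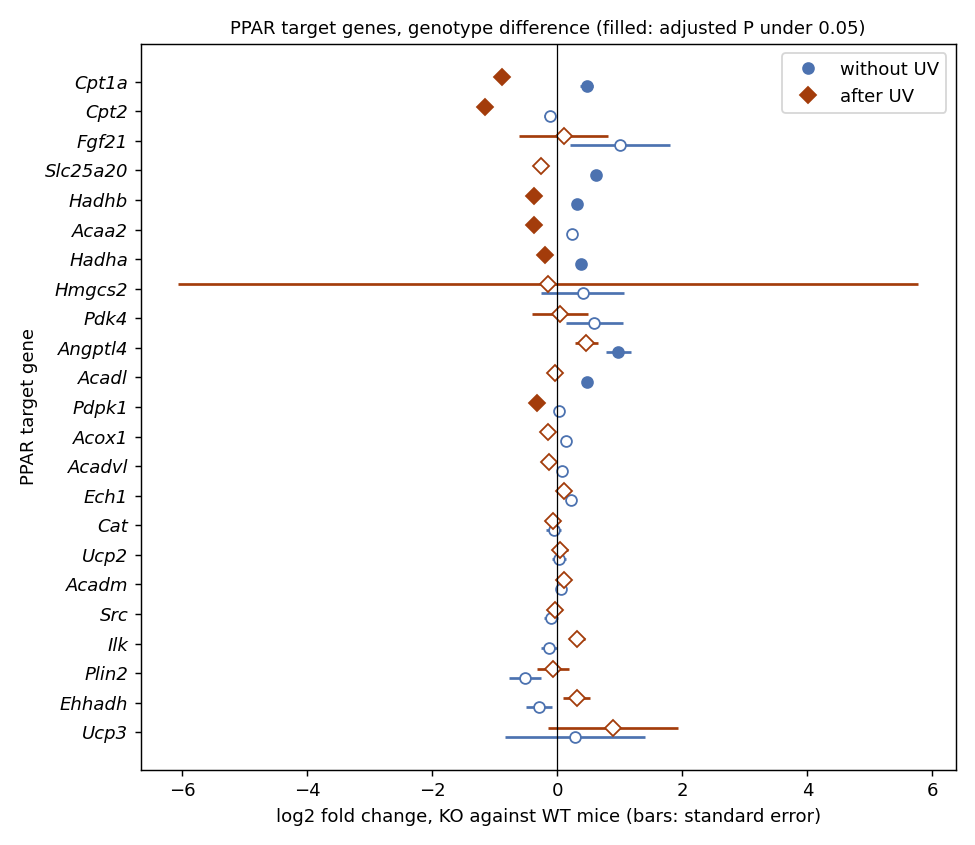
Log2 fold change of KO against WT mice (x axis, bars for the standard error) of 23 PPAR target genes (y axis), without UV as circles and after UV as diamonds, filled where the adjusted P was under 0.05 and ordered by the interaction. The filled circles lie to the right of 0, between 0.31 and 0.98, and the filled diamonds to the left, between -1.16 and -0.19.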

How the data were processed

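Epidermal RNA of 32 mice was sequenced by the authors, 1 library per mouse. The deposited files hold raw counts of reads per gene, made by the authors, per the labels, with cutadapt 1.8, STAR 2.5.3a and HTSeq 0.9.1 on GRCm38. The study's text names another build, and the counting strand is not given in the sources used here. Reads on no gene (6.80 to 9.75%) were left out. Of 55401 gene identifiers, 55141 matched GENCODE M21, the source of coordinates and exon lengths. Promoter windows came from RefSeq.

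Genes at 1 cpm or more in at least 1 mouse were kept. Levels are CPM on TMM-scaled library sizes, and a ratio per kilobase uses all annotated exons. All genes were fitted with edgeR 4.0.16 (quasi-likelihood test, 8 group means) in R 4.3.3, with contrasts averaged over the sexes and a threshold of 0.05 on the Benjamini-Hochberg adjusted P. Likeness between genes used log2 cpm with a prior count of 1. The code was tested on simulated data. DESeq2 1.42.0, limma-trend (limma 3.58.1), other size factors, other filters, an additive sex term, fewer mice and each mouse left out were alternatives. The sex difference within each genotype was added after seeing the data.

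All 8 genes were described. From each pathway list, genes called for genotype or the interaction were named, and the 3 with the largest UV response in WT mice at 1 cpm or more, apart from those of the PPAR target list, whose genotype calls are given. The genes and lists were chosen with earlier results of these data known. Some genes that these rules name are not reported here. Mouse names only identify mice.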

Additional observations from a re-analysis of the deposited data

Results flagged for a closer look

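In groups of 4 mice of 1 sex, genotype and treatment, 4 of 64 groups of values had a mouse far from the other 3. For normally distributed values chance gives about 1 in 20. That rate does not hold for Rxrg, which had few or no reads in most mice. Ppard in the female KO UV mouse 54F was at 174.6 cpm, against 228 to 239 cpm in the other 3, and this is the mouse with 2187 cpm of dermal fibroblast markers. Rxrg was at 1.38 cpm in the male WT UV mouse 38M, against 0 to 0.0317 cpm. It was at 0.546 cpm in the female WT UV mouse 59F and at 0.621 cpm in the male KO UV mouse 58M, with no read in the other mice of those groups. The summed skeletal muscle markers of 38M, 59F and 58M were 2838, 2062 and 1491 cpm, the highest of their groups.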

How the results depend on the processing

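Of the genes examined, Ppard, Ppara, Pparg and Rxra kept the direction and the side of the threshold of each UV call under other size factors, other filters, DESeq2, limma-trend, an additive sex term, only the 16 mice of the contrast and each mouse left out, and so did the Ppard difference after UV. Fits on 1 sex lost the Ppard difference after UV in males and, in females, the Pparg response of KO mice and the Rxrb response of WT mice.

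The number of genes called moved more. For the genotype difference without UV (32 genes) it was 78 with DESeq2, 15 with only the 16 mice of the contrast, 5 in males and 2 in females, and 20 (without 69F) to 45 (without 63F) when each mouse was left out. For the difference after UV (514) it was 1116 with DESeq2, 260 with limma-trend, 263 with no filter, 40 with the 16 mice, 7 in males, 1383 in females, 133 (without 51F) to 983 (without 59M) with a mouse left out, and 209 without 54F. For the genotype-by-UV interaction (119) it was 841 with DESeq2, 55 with no filter, 6 in males, 12 in females and 56 (without 69M) to 346 (without 59M). The sex-by-UV interaction called 0 genes with edgeR (1091 at an unadjusted P under 0.05), 22 with DESeq2, 2 with limma-trend and 0 to 1 with a mouse left out. The sex difference called 2965 genes over all mice, 18 in WT mice alone and 2940 in KO mice alone, fits that were chosen after seeing the data. The causes were not tested.

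Values that changed sign all belonged to differences that had not passed the test over all mice. Without UV these were, in females alone, Rxra at -0.012, Rxrb at 0.022, Ppargc1a at 0.156, Cpt2 at 0.039 and Pdpk1 at -0.027. After UV they were Ppara at -0.229 with limma-trend, in males Ppara at -0.036, Ppargc1b at -0.106 and Acadl at 0.055, and in females Rxrb at -0.03. The WT response of Ppargc1b was 0.039 in males, and the interaction of Rxrb was -0.052 in females. With each mouse left out, ranges that crossed 0 were -0.097 to 0.313 for Ppara, -0.086 to 0.026 for Rxra and -0.093 to 0.015 for Acadl after UV, -0.016 to 0.072 for Pdpk1 without UV, -0.313 to 0.351 for Pparg in WT mice and -0.03 to 0.196 for Ppargc1b in KO mice.

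Target gene calls were lost without UV for Cpt1a without 43M, 62F, 63F, 67M, 69F, 69M, 71F, 71M or 73F and for Angptl4 without 44M, 54M, 60F, 67M, 69F, 71F or 73F, and after UV for Hadha without 32M, 51F, 57F, 71M or 72M. No paired analysis was possible because the mouse names identify single animals and no 2 of the 8 groups share more than 1 number. The low counts of Ppara after UV, Pparg, Rxrg and Ppargc1a limit what could be detected for them.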
